A study of Mus musculus with 4 samples.

Results

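The small leucine-rich proteoglycans are a family of secreted matrix proteins, and 8 of their genes were described here across the cells of mouse colon tumours: Dcn (decorin), Bgn (biglycan), Aspn (asporin), Lum (lumican), Fmod (fibromodulin), Prelp, Ogn (osteoglycin) and Podn (podocan). The genes were chosen by name, with earlier results of these data known, and all 8 had a row among the 16305 genes of the series. The transcripts came from single wells holding cells sorted as cancer-associated fibroblasts out of 4 untreated APTKA tumours, which had been transplanted into the colon of female C57BL6J mice. All 4 tumours form 1 group with no healthy or treated counterpart, so every comparison was made between kinds of wells from the same tumours. The labels spell out neither the APTKA alleles nor the gate of the sort. They do not say whether each tumour came from its own mouse, so p-values measure only the spread between these samples, which may be partly technical.

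Each of these proteins has a curved core of leucine-rich repeats, and most carry chondroitin, dermatan or keratan sulfate chains. They lie along collagen fibrils, where they set fibril thickness and spacing, and several bind growth factors of the TGF-β family or signal to cells when freed from the matrix. Decorin, biglycan and asporin form class I of the family, lumican, fibromodulin and Prelp class II, and osteoglycin class III, while podocan is a larger relative. In connective tissue they are made mainly by fibroblasts and related mesenchymal cells.

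Of 1536 wells, those with at least 1000 transcripts and no more than 30% mitochondrial ones were used, which left 43, 250, 243 and 204 wells in tumours 1, 2, 3 and 4 (740 in all). Wells were then assigned by markers that hold none of the 8 genes. Fibroblast-marker wells, led by the collagen genes Col3a1 and Col1a2, numbered 28, 212, 201 and 164 in the 4 tumours (605 in all). A further 47 wells passed the smooth-muscle markers, led by Myh11 and Actg2, and 24 passed the pericyte markers, led by Rgs5 and Notch3. Another 16 passed the markers of interstitial cells of Cajal, the pacemaker cells of the gut, led by Kit and Ano1, and 41 were rich in haemoglobin transcripts. Tumour 1 stood apart: its share of spike-in RNA was 44.0%, against 5.54 to 8.59% in the others, and its median mitochondrial share was 14.4%, against 5.25 to 6.14%. The sequencing run also separates tumour 1 from tumours 2 to 4, so run and tumour cannot be told apart. Levels are given as transcripts per 10000 transcripts of the summed wells. Each molecule was counted once, so levels of different genes can be set side by side without dividing by length.

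Several of these genes lie next to each other in the genome (GENCODE M21, build GRCm38). Dcn on chr10:97479609-97518143 and Lum on chr10:97565128-97572703 are neighbours 47.0 kb apart on the plus strand, followed by the related genes Kera and Epyc. Aspn on chr13:49544443-49567565 and Ogn on chr13:49608046-49624501 lie 40.5 kb apart on the plus strand, with the related genes Ecm2 before and Omd between them. Prelp on the minus strand of chr1:133910304-133921414 and Fmod on the plus strand of chr1:134037254-134048277 are neighbours 116 kb apart. Bgn lies on chrX:73483602-73495933 (plus strand) and Podn on chr4:108014791-108096445 (minus strand), neither beside another of the 8. The span of Podn shares 52.6 kb with Scp2 on the same strand, so reads there could be counted for either gene. Aspn and Ogn lie inside the span of Cenpp on the other strand, and Prelp overlaps the antisense gene Gm15851. No source states whether counting used the strand. Pooled over the fibroblast-marker wells, Cenpp reached 0.0125 transcripts per 10000, while Scp2 was at 1.14 and Podn at 0.817. How much of the Podn level came from reads of Scp2 was not tested.

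Start regions (250 bases before and 50 after the RefSeq start, build GRCm38.p6) were found for 6 of the 8 genes. Those of Bgn, Aspn and Ogn are printed because Bgn and Aspn were both higher in the matrix-rich wells described below, while Ogn, the chromosomal neighbour of Aspn, was not called there. Capitals mark matches to the TATA box (TATAAA), the GC box (GGGCGG) or the CCAAT box (CCAAT) on either strand.
Bgn, chrX:73483351-73483650, plus strand: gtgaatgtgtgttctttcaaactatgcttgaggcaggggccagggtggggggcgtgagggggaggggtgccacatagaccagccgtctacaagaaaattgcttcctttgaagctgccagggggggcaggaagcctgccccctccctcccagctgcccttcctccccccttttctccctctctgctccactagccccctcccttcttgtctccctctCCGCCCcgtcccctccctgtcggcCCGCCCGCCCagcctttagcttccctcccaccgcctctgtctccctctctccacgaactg
Aspn, chr13:49544193-49544492, plus strand: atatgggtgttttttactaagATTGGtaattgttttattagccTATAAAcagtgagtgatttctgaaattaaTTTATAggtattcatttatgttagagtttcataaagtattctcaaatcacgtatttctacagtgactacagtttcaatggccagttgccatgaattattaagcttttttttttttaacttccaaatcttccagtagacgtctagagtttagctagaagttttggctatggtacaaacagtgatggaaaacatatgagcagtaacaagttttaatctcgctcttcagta
Ogn, chr13:49607765-49608064, plus strand: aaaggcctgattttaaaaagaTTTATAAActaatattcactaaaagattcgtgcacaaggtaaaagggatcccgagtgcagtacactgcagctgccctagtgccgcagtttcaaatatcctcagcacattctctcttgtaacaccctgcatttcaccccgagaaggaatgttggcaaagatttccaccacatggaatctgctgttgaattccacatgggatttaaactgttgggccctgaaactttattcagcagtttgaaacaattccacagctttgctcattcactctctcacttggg
The Bgn window had 3 GC boxes, 2 of which overlap, and a GC content of 63.7%. The Aspn window had a GC content of 31.0%, 2 TATA boxes and 1 CCAAT box. The Ogn window had a GC content of 42.3% and 2 TATA boxes that overlap. Over all 32851 windows of the same length the median GC content was 52.7%, and 13.6% held a TATA box, 35.7% a GC box and 37.4% a CCAAT box. The AP-1 site (TGANTCA), the E-box (CACGTG) and the SMAD palindrome (GTCTAGAC) were searched too, and their letters are in none of these 3 windows. They are in 7.81%, 7.15% and 0.213% of all windows. A match is a description of the letters and not a known site.

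In the fibroblast-marker wells, decorin outweighed the rest of the family. Dcn, whose protein coats collagen fibrils and binds TGF-β, reached 112, 78.4, 130.0 and 122 transcripts per 10000 in tumours 1 to 4 (111 ± 22.6, SD, n = 4). It made up 64.7 ± 3.65% of the transcripts of the 8 genes, which together stood at 169.8 ± 28.7 per 10000. Bgn, its closest relative and a ligand of Toll-like receptors when set free, followed with 25.2, 32.1, 33.0 and 42.3 (33.1 ± 7.05). Both were found in nearly every fibroblast-marker well, Dcn in 99.3% and Bgn in 97.4%, and their ranges over the 4 tumours did not overlap. Single wells varied far more than tumours: in tumour 3, Dcn stood at 9.77 per 10000 at the 10th percentile of wells and at 263.6 at the 90th.

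Lum, which binds collagen and keeps the cornea clear, had 12.1, 8.43, 12.8 and 14.2 transcripts per 10000 (11.9 ± 2.46). Ogn, a class III protein first found in bone, had 10.4, 4.13, 7.18 and 5.88 (6.89 ± 2.64), and its range overlapped that of Lum above and that of Prelp below. Prelp, which links collagen to basement membranes, was the member with the smallest relative spread, at 5.13, 4.87, 3.80 and 4.68 (4.62 ± 0.579). Aspn, a class I protein that carries no glycosaminoglycan chain and binds TGF-β and collagen, had 1.40, 1.15, 2.29 and 1.87 (1.68 ± 0.504). Podn, a collagen-binding protein, had 1.36, 0.811, 0.703 and 0.883 (0.938 ± 0.289) and overlapped Aspn. The order of the means was thus Dcn, Bgn, Lum, Ogn, Prelp, Aspn, Podn and Fmod, and the ranges over tumours of Lum and Ogn, Ogn and Prelp, and Aspn and Podn overlapped. Compared within each tumour, Lum was above Ogn and Aspn above Podn in 4 of 4 tumours, while Ogn was above Prelp in 3 of 4. At least 6 of the 8 genes were found in 45.8% of the 605 fibroblast-marker wells, in 23.4% of 47 smooth-muscle-marker wells and in 12.5% of 24 pericyte-marker wells. Median depths were 9734, 4418 and 9071 transcripts in these groups. In wells thinned to 3000 transcripts at least 6 were found in 17.2% of 523 fibroblast-marker wells, 21.4% of 28 smooth-muscle-marker wells and 1 of 20 pericyte-marker wells, so the unthinned order of fibroblast and smooth-muscle wells was not kept.

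Fmod, a keratan sulfate protein of tendon and cartilage that acts in fibril assembly, was rare. It stood at 0, 0.245, 0.183 and 0.202 transcripts per 10000 and appeared in 6.78% of fibroblast-marker wells. Of its 164 transcripts, 18.3% came from 1 well of tumour 2, and without that well the level of tumour 2 was 0.142. A shallow well of tumour 3 with 1100 transcripts held 13.02 of Fmod, which is 118 per 10000, so single wells carried much of the gene and most carried none.

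Part of these transcripts could be free RNA, and the haemoglobin-rich wells are set beside them because red cells make no matrix. These wells were set apart before the fibroblast gate was applied, and they were not free of fibroblast markers. Their median level of the fibroblast list was 47.6 per 10000, against 340 in the fibroblast-marker wells and a gate of 20. Whether some haemoglobin-rich wells also held a fibroblast was not tested. Dcn reached 8.09 ± 1.57 and Bgn 4.71 ± 2.70 per 10000 there (SD, n = 3 tumours with at least 5 such wells), and the means of the other 6 genes lay between 0 and 1.21. Haemoglobin made up 68.4% of the transcripts of these wells, which lowers the level of every other gene. Per 10000 transcripts other than haemoglobin, Dcn was at 111 ± 22.7 in the fibroblast-marker wells and at 25.9 ± 2.32 in the haemoglobin-rich wells. In transcripts per well it was at 137 ± 38.6 in the fibroblast-marker wells and 1.99 ± 0.656 in the haemoglobin-rich wells. With wells thinned to 3000 transcripts, which left out 82 fibroblast-marker and 33 haemoglobin-rich wells, Dcn was found in 99.0% of 523 fibroblast-marker wells and in 87.5% of 8 haemoglobin-rich wells. Lum was found in 71.7% of the fibroblast-marker wells and in 2 of the 8 haemoglobin-rich ones, and Ogn in 53.3% of the fibroblast-marker wells and in 1 of the 8. Before thinning, the median depths were 9734 transcripts per fibroblast-marker well and 2403 per haemoglobin-rich well. The share of free RNA in the levels was not tested.

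**Figure D1:**
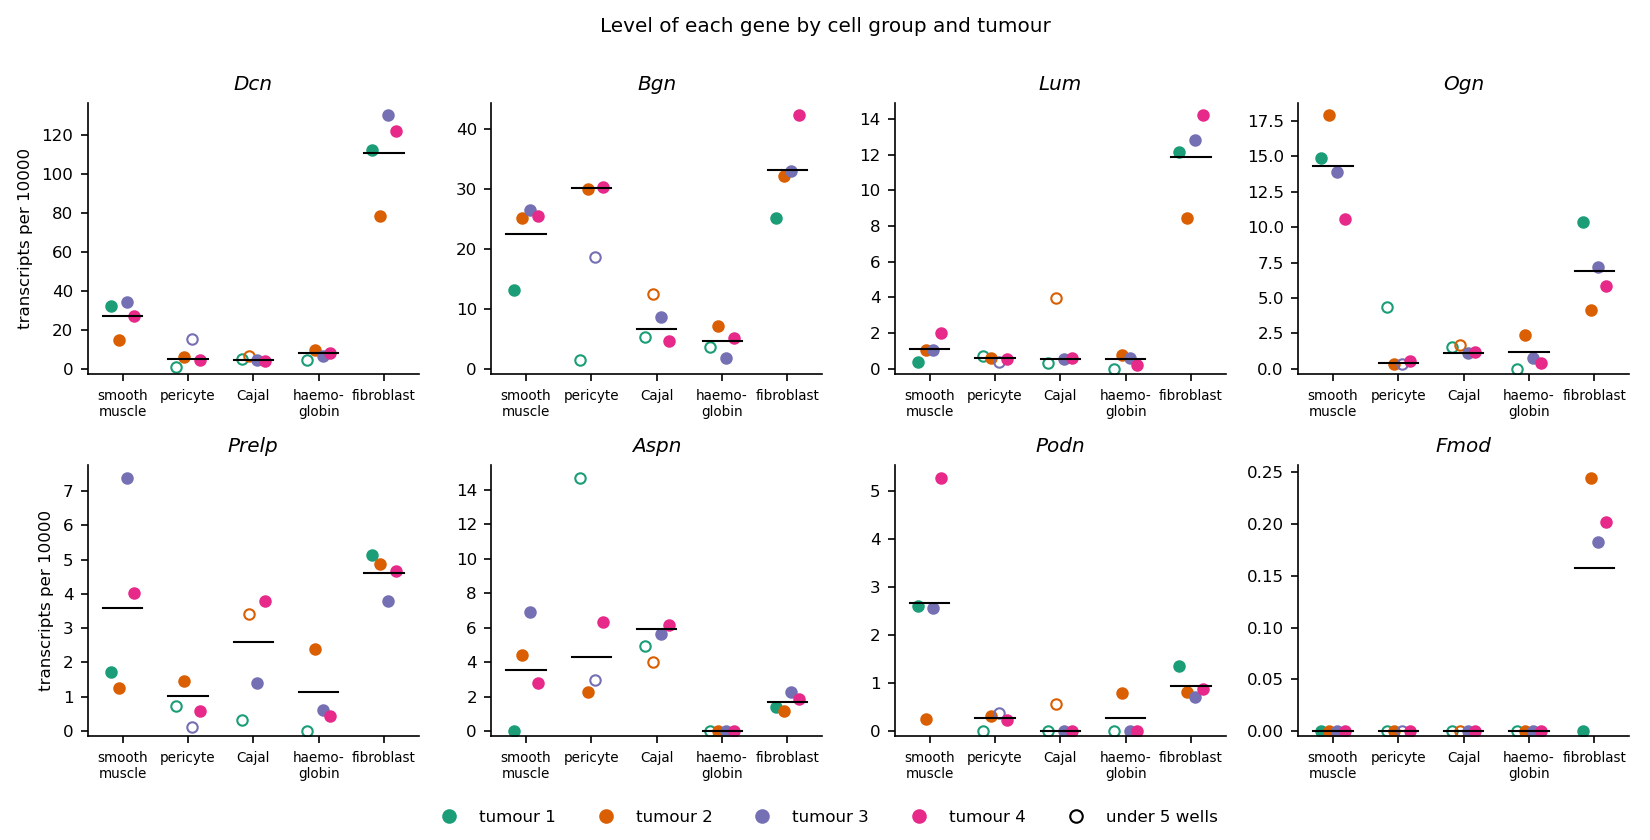
Level of each of the 8 genes (transcripts per 10000, linear axes that differ between panels) in 5 kinds of wells, with 1 point per tumour, open where under 5 wells were summed, and a bar at the mean of the filled points. Dcn and Lum lie highest in the fibroblast-marker wells, Ogn in the smooth-muscle-marker wells, and Aspn reaches 5.64 and 6.14 in the Cajal-marker wells of tumours 3 and 4.

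Smooth-muscle-marker wells carried less decorin and lumican than fibroblast-marker wells and more osteoglycin. Dcn had 32.1, 14.9, 34.2 and 27.2 transcripts per 10000 in the smooth-muscle-marker wells of tumours 1 to 4, against 112, 78.4, 130.0 and 122 in the fibroblast-marker wells. Lum had 0.371, 1.08, 1.04 and 2.01 in smooth-muscle-marker wells, against 12.1, 8.43, 12.8 and 14.2. Neither gene's groups overlapped. Dcn fell by 2.14 ± 0.28 on the log2 scale (± SE, edgeR quasi-likelihood test with Benjamini-Hochberg adjustment, adjusted p = 0.00029, n = 4 tumours in each group) and Lum fell by 3.57 ± 0.35 (adjusted p = 5.33e-05), and both were called in all 14 alternative settings. Dcn was at 27.1 ± 8.66 per 10000 in the smooth-muscle-marker wells, against 8.09 ± 1.57 in the haemoglobin-rich wells, and at 21.8 ± 12.5 transcripts per well, against 1.99 ± 0.656. Per 10000 transcripts other than haemoglobin the smooth-muscle-marker wells, at 27.1 ± 8.66, and the haemoglobin-rich wells, at 25.9 ± 2.32, differed by less than their spread over tumours. Lum was at 1.13 ± 0.673 per 10000 in the smooth-muscle-marker wells, against 0.540 ± 0.289 in the haemoglobin-rich wells, and at 1.13 ± 0.673, against 1.71 ± 0.852, without haemoglobin.

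Ogn went the other way. It had 14.9, 17.9, 13.9 and 10.6 transcripts per 10000 in smooth-muscle-marker wells, against 10.4, 4.13, 7.18 and 5.88 in fibroblast-marker wells. The lowest smooth-muscle value lay just above the highest fibroblast value. Ogn rose by 1.04 ± 0.28 on the log2 scale (edgeR quasi-likelihood test with Benjamini-Hochberg adjustment, adjusted p = 0.0298). The call was lost in 10 of 14 alternatives, whose log2 differences ran from 0.49 to 1.09 and whose adjusted p ran from 0.0134 to 0.408. Among them was every fit without 1 tumour (adjusted p = 0.0671 without tumour 1, 0.126 without tumour 2, 0.159 without tumour 3 and 0.111 without tumour 4).

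In all, 3 of the 7 family members tested were called in this comparison, 1 higher and 2 lower, against 12.0% of all genes tested (5.73% higher, 6.25% lower). Bgn had 13.2, 25.2, 26.4 and 25.4 in smooth-muscle-marker wells, against 25.2, 32.1, 33.0 and 42.3 in fibroblast-marker wells. It was lower in 4 of 4 tumours, the groups overlapped, and the log2 difference of -0.66 ± 0.25 did not pass (edgeR quasi-likelihood test with Benjamini-Hochberg adjustment, adjusted p = 0.122). Podn had 2.60, 0.250, 2.57 and 5.28 in smooth-muscle-marker wells, against 1.36, 0.811, 0.703 and 0.883, and was not called with all tumours. Without tumour 2, where it was low, Podn was called (log2 difference 1.76, adjusted p = 0.00467). Aspn was not called either (0.74 ± 0.58), but was without tumour 1, where the smooth-muscle-marker wells held none (1.12, adjusted p = 0.0378). Prelp ranged from 1.25 to 7.39, against 3.80 to 5.13. Fmod had no transcript among 365713 in the smooth-muscle-marker wells, which allows up to 0.0820 per 10000 by counting error alone, and did not pass the filter on low counts.

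The fibroblast list itself stood at 92.8 to 223 per 10000 in the smooth-muscle-marker wells, against 335 to 507 in the fibroblast-marker wells, and the smooth-muscle list at 47.7 to 163, against 2.07 to 3.92. The pericyte list was at 0.618 to 23.6 in the smooth-muscle-marker wells, against 1.79 to 2.30. Its highest value was in tumour 2, where the smooth-muscle list, Dcn and Podn were lowest. Median depths per tumour were 2572 to 13248 transcripts in smooth-muscle-marker wells, against 5850 to 11073. The part of these in the results was not tested. Among related genes, 3 of the 9 collagen genes and collagen partners tested fell and none rose (median log2 difference -1.11, against -0.030 over all genes tested), with Col14a1, a fibril-associated collagen, at 0.268 ± 0.393, against 3.30 ± 1.23 per 10000 (log2 difference -3.61). None of 5 tested genes for the chondroitin and dermatan chains was called. Of 5 tested genes of matrix cleavage, Mmp13 and Adamts5 fell. Vcan, the gene of the large proteoglycan versican, was at 1.22 ± 0.488, against 4.23 ± 0.346 per 10000 (log2 difference -1.85).

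In the pericyte-marker wells of tumours 2 and 4 biglycan was the most abundant member, with little of the others beyond decorin and asporin. Decorin came second in tumour 2 and asporin in tumour 4. At least 5 pericyte-marker wells were found only in tumours 2 and 4 (11 and 7 wells), so the comparison was fitted on these and has 1 residual degree of freedom, so that its p-values lean on the spread pooled over all genes. Bgn had 30.05 and 30.3 transcripts per 10000 in the pericyte-marker wells of these tumours, against 32.1 and 42.3 in the fibroblast-marker wells, a log2 difference of -0.61 ± 0.23 that did not pass (edgeR quasi-likelihood test with Benjamini-Hochberg adjustment, adjusted p = 0.0768). Aspn had 2.29 and 6.30 in pericyte-marker wells, against 1.15 and 1.87, and rose by 1.09 ± 0.31 (adjusted p = 0.0092). Dcn had 6.24 and 4.34, against 78.4 and 122, and fell by 4.53 ± 0.26 (adjusted p = 9.83e-62). How Dcn compares with the haemoglobin-rich wells depends on the scale. Per 10000 it was lower in these pericyte-marker wells than the 8.09 ± 1.57 of the haemoglobin-rich wells. Per 10000 transcripts other than haemoglobin it was lower too, at 5.29 ± 1.34, against 25.9 ± 2.32. Per well it was higher, at 5.46 and 5.43 transcripts in the pericyte-marker wells of tumours 2 and 4, against 1.33 to 2.64 in the haemoglobin-rich wells. Bgn was higher in the pericyte-marker wells per 10000 (4.71 ± 2.70 in haemoglobin-rich wells), without haemoglobin (14.2 ± 6.02 there) and per well, and Aspn had no transcript in the haemoglobin-rich wells.

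Lum, Ogn, Prelp and Podn fell too, by 4.52, 3.83, 2.57 and 1.95 on the log2 scale, each with at most 1.45 per 10000 in the pericyte-marker wells of tumours 2 and 4. So 6 of 8 members tested were called, 1 higher and 5 lower, against 8.02% of all genes tested (2.89% higher, 5.13% lower); the median over all genes was -0.18. Fmod had no transcript among 278400, which allows up to 0.108 per 10000. The Aspn call was lost in 9 of 12 alternatives and the Podn call in 8; without tumour 2 the adjusted p of Aspn was 0.121 and without tumour 4 it was 0.938 (edgeR quasi-likelihood, fitted with the smooth-muscle-marker sums so that the lone pericyte sample is taken to vary like the other groups). Without tumour 4 no member was called, against 0.580% of all genes tested: the log2 differences of Dcn and Lum were -3.58 and -4.13 (adjusted p = 0.0542 and 0.0505), and that of Prelp was -1.46 (adjusted p = 0.658). Without the tumour as a block the Aspn and Podn calls were lost (adjusted p = 0.0933 and 0.0501). The tumours left out for too few wells looked different from each other: 2 pericyte-marker wells of tumour 1 gave 1.47 for Bgn and 14.7 for Aspn, and 4 of tumour 3 gave 18.7 and 2.97. Over all 4 tumours the fibroblast list stood at 75.8 to 330 per 10000 in the pericyte-marker wells, against 335 to 507 in the fibroblast-marker wells. Contractile genes (Acta2, Tagln and others) were at 104 to 118, against 39.1 to 54.9. Endothelial markers stood at 2.70 to 4.91 per 10000 in the pericyte-marker wells, against 0.0776 to 0.223 in the fibroblast-marker wells. The part of these lists in the result was not tested. Of 15 other proteoglycan genes tested, 2 rose and 5 fell. Those that rose were Agrn at 2.32 ± 0.537, against 0.235 ± 0.0756, and Col18a1 at 17.4 ± 6.92, against 2.24 ± 0.860 per 10000, both genes of basement membrane proteoglycans.

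The Cajal-marker wells, with at least 5 wells only in tumours 3 and 4, carried another mixture. Aspn had 5.64 and 6.14 transcripts per 10000 there, against 2.29 and 1.87 in the fibroblast-marker wells of the same tumours. Dcn had 4.79 and 4.09, against 130.0 and 122. Bgn had 8.73 and 4.67, against 33.0 and 42.3, so it lay above Aspn in tumour 3 and below it in tumour 4. Tumours 1 and 2, with 3 such wells each, gave 5.24 and 12.6 for Bgn and 4.93 and 3.99 for Aspn. Aspn was thus above its fibroblast value in all 4 tumours, and it had no transcript among 115280 in the haemoglobin-rich wells, which allows up to 0.260 per 10000. Haemoglobin made up 68.4% of the transcripts of those wells, so the limit is higher per 10000 transcripts other than haemoglobin. No test was run on so few wells.

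Within the fibroblast-marker wells, the family was then followed along 6 marker lists. For each list the wells of every tumour were put in order of its level and divided into 3 equal parts, and the top part (the high wells) was set against the bottom part (the low wells). These parts are ranges of a continuous score: 285 of 605 wells lay within 25% of a limit for the contractile list and 199 for the tumour-matrix list. The lists share wells, since 60.0% of the contractile-high wells were also tumour-matrix-high and 9% were adventitial-high, so the comparisons are not independent of each other.

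Wells with high contractile genes (Acta2, Tagln and others, the mark of myofibroblasts) had less decorin and lumican. Dcn had 93.1, 44.0, 76.9 and 60.2 transcripts per 10000 in the contractile-high wells of tumours 1 to 4, against 140.1, 99.9, 159 and 156 in the contractile-low wells. Lum had 7.75, 3.91, 3.88 and 4.74 in the high wells, against 19.6, 12.3, 14.9 and 18.9. For both genes every high-well value lay under every low-well value. Dcn fell by 1.22 ± 0.19 on the log2 scale (edgeR quasi-likelihood test with Benjamini-Hochberg adjustment, adjusted p = 0.000947) and Lum fell by 1.91 ± 0.19 (adjusted p = 3.35e-05), and both were called in all 14 alternatives. Podn had 1.25, 0.374, 0.473 and 0.555 in the high wells, against 2.12, 0.975, 0.559 and 0.978, lower in 4 of 4 tumours with overlapping groups, and fell by 1.004 ± 0.24 (adjusted p = 0.0141). That call was lost in 5 of 14 alternatives, among them those without tumour 2 (adjusted p = 0.165), without tumour 4 (adjusted p = 0.146) and without the tumour as a block (adjusted p = 0.166).

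So 3 of 7 members tested were called, all lower, against 10.9% of all genes tested (4.74% higher, 6.15% lower). Bgn did not follow Dcn. It was at 31.8, 38.1, 30.01 and 43.9 in the high wells, against 15.3, 25.9, 22.9 and 37.9 in the low wells, higher in 4 of 4 tumours but not called (0.38 ± 0.19, edgeR quasi-likelihood test with Benjamini-Hochberg adjustment, adjusted p = 0.265). Ogn and Prelp were lower in the high wells of tumours 2, 3 and 4 and higher in those of tumour 1, where Ogn was at 17.7, against 3.18, and Prelp at 6.81, against 2.12. Without tumour 1 both were called, Ogn at -0.70 (adjusted p = 0.0116) and Prelp at -0.79 (adjusted p = 0.00986), and 6 of 7 members were called in all, against 13.4% of all genes tested. The smooth-muscle list was at 2.92 to 5.55 per 10000 in the high wells, against 0.995 to 2.30 in the low wells, and median depths were 8341 to 11793, against 6149 to 10841. Their part in the result was not tested.

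Genes of the sulfated chains moved in both directions here. Of 14 tested genes for the linker and the chondroitin and dermatan chains, 3 rose and 2 fell. Chsy3, a chondroitin synthase, was at 0.370 ± 0.0389, against 0.0390 ± 0.0414 per 10000 (log2 difference 2.56), and Chst11, a chondroitin sulfotransferase, at 0.687 ± 0.360, against 0.278 ± 0.0575. Chst1, a sulfotransferase of keratan sulfate and the only 1 of 4 tested on its list that was called, rose by 2.06. Of 13 collagen genes and partners 3 rose and 3 fell: Col12a1, which is also on the tumour-matrix list, was at 7.72 ± 3.27, against 1.32 ± 0.538, and Col14a1 at 1.05 ± 0.924, against 5.92 ± 1.82. Of 9 tested genes of matrix cleavage 1 rose and 4 fell. Mmp13, a collagenase, rose by 5.42 on the log2 scale, and Adamts5 and Adamts1, which cut large proteoglycans, fell by 2.41 and 1.75. Of 16 other proteoglycan genes 4 rose and 4 fell. Cspg4, a cell-surface proteoglycan of pericytes and myofibroblasts, was at 0.742 ± 0.363, against 0.107 ± 0.0837 per 10000, and Gpc3, a membrane-anchored heparan sulfate proteoglycan, at 0.103 ± 0.0822, against 0.608 ± 0.193. Bmp2, a ligand of the TGF-β superfamily, was at 2.71 ± 1.26, against 0.337 ± 0.190, and 3 of 12 growth factors and receptors rose while 3 fell.

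**Figure D2:**
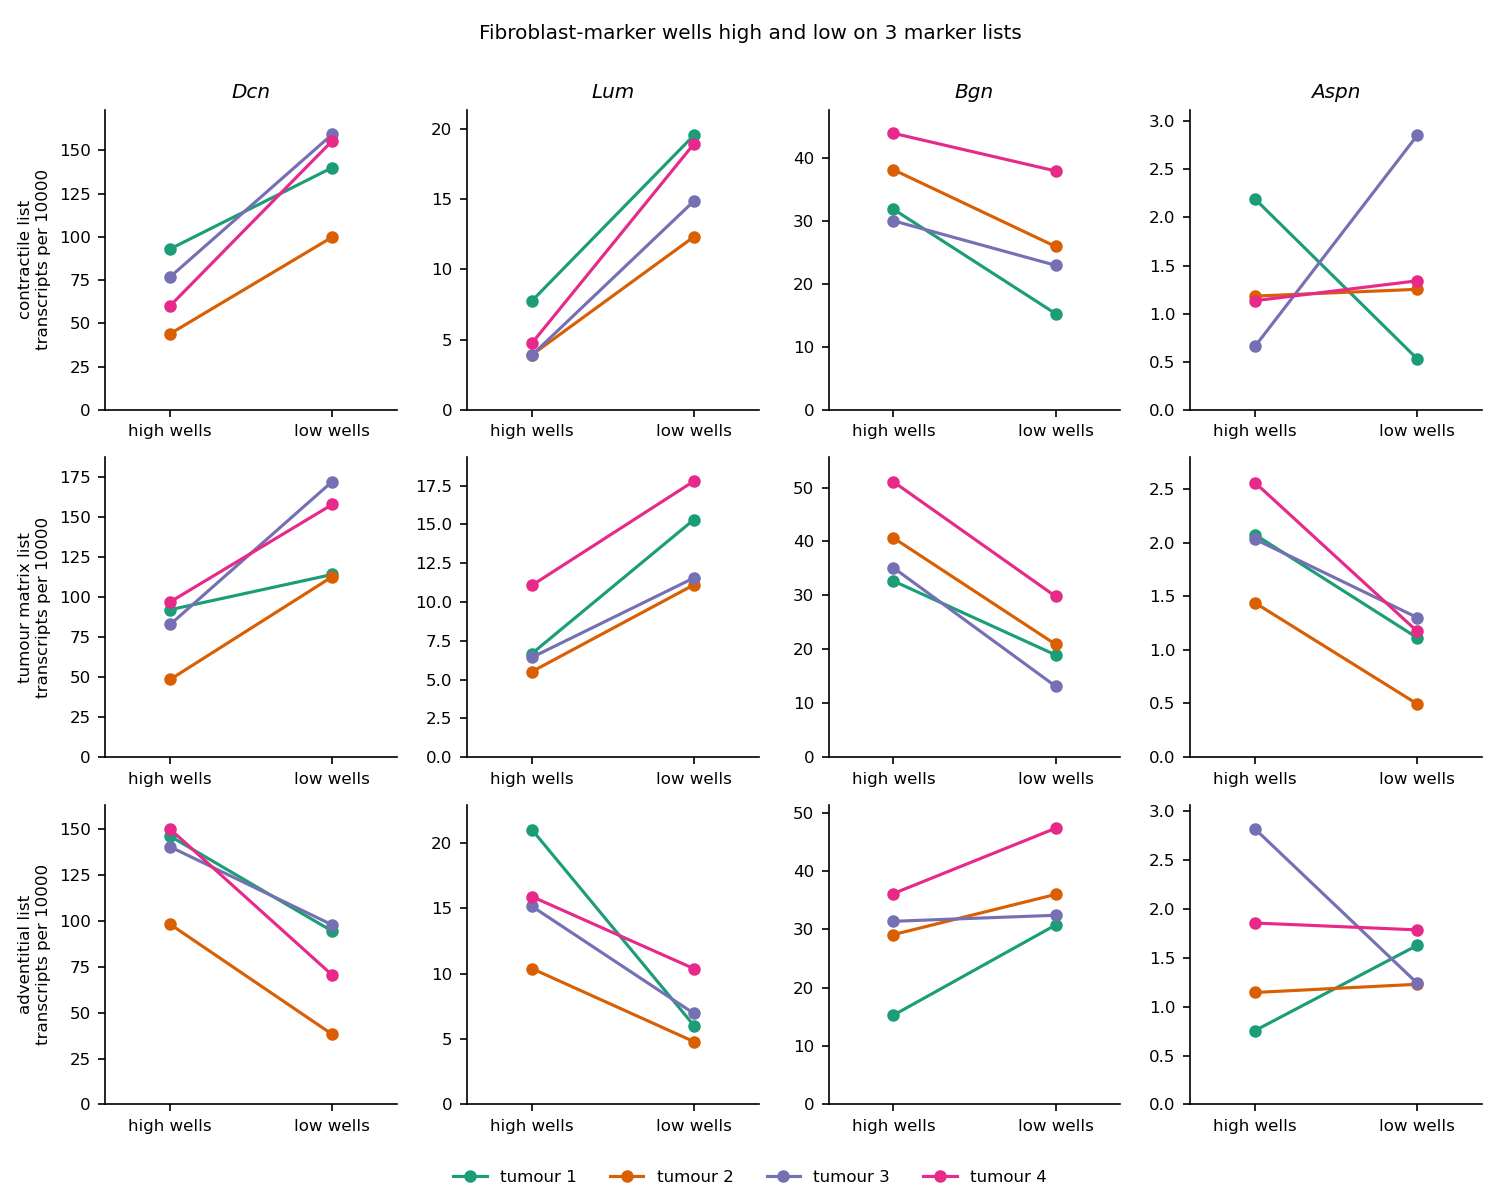
Transcripts per 10000 (linear axes from 0) of Dcn, Lum, Bgn and Aspn in the high and the low wells among the fibroblast-marker wells for the contractile, tumour-matrix and adventitial lists, with 1 line per tumour. Dcn and Lum are lower in the high wells of the contractile and tumour-matrix lists and higher in the high wells of the adventitial list in all 4 tumours, while Bgn and Aspn are higher in the tumour-matrix-high wells.

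Wells rich in tumour-matrix genes (Fn1, Postn, Cthrc1 and others) had more biglycan and asporin and less lumican. Bgn had 32.7, 40.7, 35.1 and 51.1 transcripts per 10000 in the tumour-matrix-high wells, against 18.96, 20.9, 13.2 and 29.8 in the low wells. Aspn had 2.07, 1.44, 2.03 and 2.56 in the high wells, against 1.11, 0.496, 1.30 and 1.17. In neither gene did the groups overlap. Bgn rose by 0.95 ± 0.24 on the log2 scale (edgeR quasi-likelihood test with Benjamini-Hochberg adjustment, adjusted p = 0.03) and Aspn by 0.99 ± 0.24 (adjusted p = 0.02). Lum had 6.67, 5.51, 6.43 and 11.1 in the high wells, against 15.3, 11.1, 11.6 and 17.8, where the highest high-well value, in tumour 4, lay just under the lowest low-well value, in tumour 2. It fell by 0.96 ± 0.23 (adjusted p = 0.0199).

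These 3 of 7 members tested, 2 higher and 1 lower, compare with 6.21% of all genes tested (2.98% higher, 3.23% lower). The calls depended on single tumours: without tumour 1, 6 members were called, and without tumours 2, 3 and 4, 0, 1 and 0 were. Of all genes tested, 6.998% were called without tumour 1, and 5.41%, 2.74% and 2.28% without tumours 2, 3 and 4. In those fits the log2 differences kept their sign, at 0.83 to 1.05 for Bgn, 0.83 to 1.21 for Aspn and -1.03 to -0.90 for Lum. Without the tumour as a block none was called (adjusted p = 0.258 for Bgn, 0.114 for Aspn and 0.141 for Lum). Dcn was at 92.0, 48.5, 82.8 and 96.9 in the high wells, against 114, 113, 172 and 158. Its groups did not overlap, but its difference of -0.86 ± 0.28 was not called (edgeR quasi-likelihood test with Benjamini-Hochberg adjustment, adjusted p = 0.0902), and it was called in 8 of 14 alternatives, without tumour 1 among them (-1.05, adjusted p = 0.00733). Ogn, the neighbour of Aspn on chromosome 13, had 17.9, 3.68, 5.78 and 3.90 in the high wells, against 3.62, 4.42, 13.0 and 7.75, higher in tumour 1 and lower in the other tumours. Without tumour 1 it was called (-0.87, adjusted p = 0.0404). The high wells were also the deeper ones, with median depths of 12048 to 14211 transcripts, against 3148 to 9624 in the low wells. The fibroblast list was at 415 to 600.4 per 10000 in the high wells, against 184 to 416, and the contractile list at 52.9 to 81.6, against 24.2 to 32.0. Median mitochondrial shares were 5.03 to 12.6%, against 5.21 to 20.6%. The part of these in the result was not tested. With wells thinned to 3000 transcripts the Bgn call was kept (0.87, adjusted p = 0.0161) and the Aspn call was not (0.82, adjusted p = 0.172).

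Of the collagen genes and partners tested in the same wells, 5 of 12 rose and 1 fell (median log2 difference 0.84, against 0.012 over all genes tested). Col5a3 was at 3.32 ± 1.12, against 0.788 ± 0.368 per 10000 and Col5a2 at 19.3 ± 3.37, against 6.53 ± 2.87, both chains of type V collagen. Wisp1, whose secreted product binds decorin and biglycan, was at 1.82 ± 0.971, against 0.229 ± 0.190 (log2 difference 2.85). It was the only 1 of 10 tested growth factors and receptors that was called. Ecm2, the relative that lies before Aspn on chromosome 13, fell by 1.22 on the log2 scale, at 0.326 ± 0.0977, against 0.769 ± 0.285. Fmod was too rare to be tested in either list. It stood at 0, 0.485, 0.280 and 0.357 per 10000 in the tumour-matrix-high wells, against 0, 0.0331, 0.0388 and 0.0429 in the low wells, and at 0, 0.494, 0.274 and 0.272 in the contractile-high wells, against 0, 0.0410, 0.0409 and 0.0376 in the low wells. In both lists the high wells held more in every tumour with Fmod.

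Wells rich in adventitial genes (Ly6a, Cd34, Pi16 and others, markers of resting fibroblasts around vessels) had more decorin and lumican. Dcn had 146, 98.1, 140.3 and 149.9 transcripts per 10000 in the adventitial-high wells, against 94.4, 38.2, 97.8 and 70.4 in the low wells. Lum had 21.02, 10.4, 15.2 and 15.9 in the high wells, against 6.03, 4.80, 6.95 and 10.4. The groups did not overlap for either gene, but the lowest high value of Lum only just exceeded its highest low value (10.39 in tumour 2 and 10.38 in tumour 4). Dcn rose by 0.99 ± 0.17 on the log2 scale (edgeR quasi-likelihood test with Benjamini-Hochberg adjustment, adjusted p = 0.00326) and Lum by 1.23 ± 0.20 (adjusted p = 0.00183). Each was called in 13 of 14 alternatives: Dcn was lost without the tumour as a block (adjusted p = 0.0552), and Lum in thinned wells (0.40, adjusted p = 0.159).

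These 2 of 7 members tested, both higher, compare with 10.3% of all genes tested (5.77% higher, 4.53% lower). Prelp was at 3.91, 6.63, 4.04 and 5.77 in the high wells, against 5.46, 1.96, 3.23 and 1.41, higher in all tumours but tumour 1, and was not called (1.10 ± 0.35, edgeR quasi-likelihood test with Benjamini-Hochberg adjustment, adjusted p = 0.0737). Ogn was at 1.51, 5.57, 8.57 and 6.93 in the high wells, against 16.9, 2.83, 3.23 and 1.89, again with tumour 1 opposite to the rest. Without tumour 1 Prelp was called at 1.47 (adjusted p = 0.00585) and Ogn at 1.52 (adjusted p = 0.00031), and 5 members were called, against 14.9% of all genes tested. Bgn was lower in 4 of 4 tumours without passing (-0.33 ± 0.18, adjusted p = 0.333). Median depths were 9249 to 15551 transcripts in the high wells, against 4910 to 9579 in the low wells, and the contractile list was at 19.02 to 22.1 per 10000, against 60.3 to 88.5; their part was not tested. Col14a1 was at 6.21 ± 2.30, against 0.954 ± 0.758 per 10000 (log2 difference 3.07), and Tgfbr3, the gene of the proteoglycan betaglycan, at 5.61 ± 2.82, against 1.21 ± 0.429. Of 16 tested chain genes Chsy3, Chst11 and Csgalnact1 fell and none rose. Of 16 other proteoglycan genes 5 rose and 4 fell, with Cspg4 at 0.0940 ± 0.0594, against 0.810 ± 0.466 per 10000. Bmp2 was at 0.291 ± 0.130, against 2.56 ± 1.09.

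Inflammatory genes (Nfkbia, Saa3, Cxcl1 and others), the fibroblast state that the series is titled after, separated none of the 8 genes by the test. No member was called (edgeR quasi-likelihood test with Benjamini-Hochberg adjustment), against 1.86% of all genes tested (1.40% higher, 0.459% lower). An unadjusted p under 0.05 was reached by 3 of 8 members, against 10.6% of all genes tested, and DESeq2 called 0. Dcn had 117, 89.2, 149.7 and 130.1 transcripts per 10000 in the inflammatory-high wells, against 119, 62.9, 131 and 114 in the low wells (log2 difference 0.29 ± 0.13, adjusted p = 0.455). Aspn had 0.0777, 1.06, 1.18 and 1.32 in the high wells, against 5.05, 1.18, 4.66 and 2.36, lower in 4 of 4 tumours with overlapping groups (-1.34 ± 0.44, adjusted p = 0.232). Aspn was called in thinned wells (-1.75, adjusted p = 0.0027) and with no filter on low counts. Bgn, Lum, Ogn, Podn and Prelp had log2 differences between -0.20 and 0.26. Fmod was at 0, 0.0372, 0.0924 and 0.234 per 10000 in the high wells, against 0, 0.636, 0.275 and 0.179, lower in tumours 2 and 3 and higher in tumour 4 (-1.55 ± 0.64, adjusted p = 0.42). It was called with no filter on low counts (adjusted p = 0.0166), and without tumour 2 its difference was -0.41. The list itself was at 13.5 to 116 per 10000 in the high wells, against 0.630 to 12.8 in the low wells, and median depths were 10788 to 12189, against 5552 to 7947.

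Along the telocyte list (Wnt5a, Bmp7 and others, genes of fibroblasts beneath the epithelium), Lum was the only member of 7 tested that was called, against 6.61% of all genes tested (3.69% higher, 2.93% lower). It had 6.85, 8.84, 5.65 and 10.03 transcripts per 10000 in the telocyte-high wells, against 20.4, 9.94, 14.5 and 13.6 in the low wells, and fell by 0.92 ± 0.24 (edgeR quasi-likelihood test with Benjamini-Hochberg adjustment, adjusted p = 0.0339). The groups overlapped slightly, and the call was lost in 9 of 14 alternatives, among them without tumour 1, 3 or 4 (adjusted p = 0.097, 0.23 and 0.0708). Bgn was at 27.6, 36.0, 31.3 and 51.5 in the high wells, against 17.7, 20.1, 27.4 and 34.6, higher in 4 of 4 tumours and not called (adjusted p = 0.135). Dcn was lower in 4 of 4 and not called (-0.46 ± 0.17, adjusted p = 0.172); without tumour 1 it was (-0.57, adjusted p = 0.0289). Of the 605 wells, 200 held none of the list, and ties were broken by depth, with deeper wells put lower. The list was at 0 to 0.201 per 10000 in the low wells of the 4 tumours. Median depths were 8675 to 10343 transcripts in the high wells, against 6149 to 7909 in the low wells, and their part was not tested. Along the cycling list no member was called (edgeR quasi-likelihood test with Benjamini-Hochberg adjustment), against 0.0384% of all genes tested (0.0256% higher, 0.0128% lower). There 5 of the 8 had an unadjusted p under 0.05, against 7.23% of all genes tested, and DESeq2 called 0. Dcn, Lum, Podn and Prelp were lower in the high wells of 4 of 4 tumours. The share of all genes lower in 4 of 4 tumours was not counted, so this direction carries no finding about the family. Since 350 of 605 wells held no cycling transcript, all low wells were chosen among ties, deeper wells first.

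**Figure D3:**
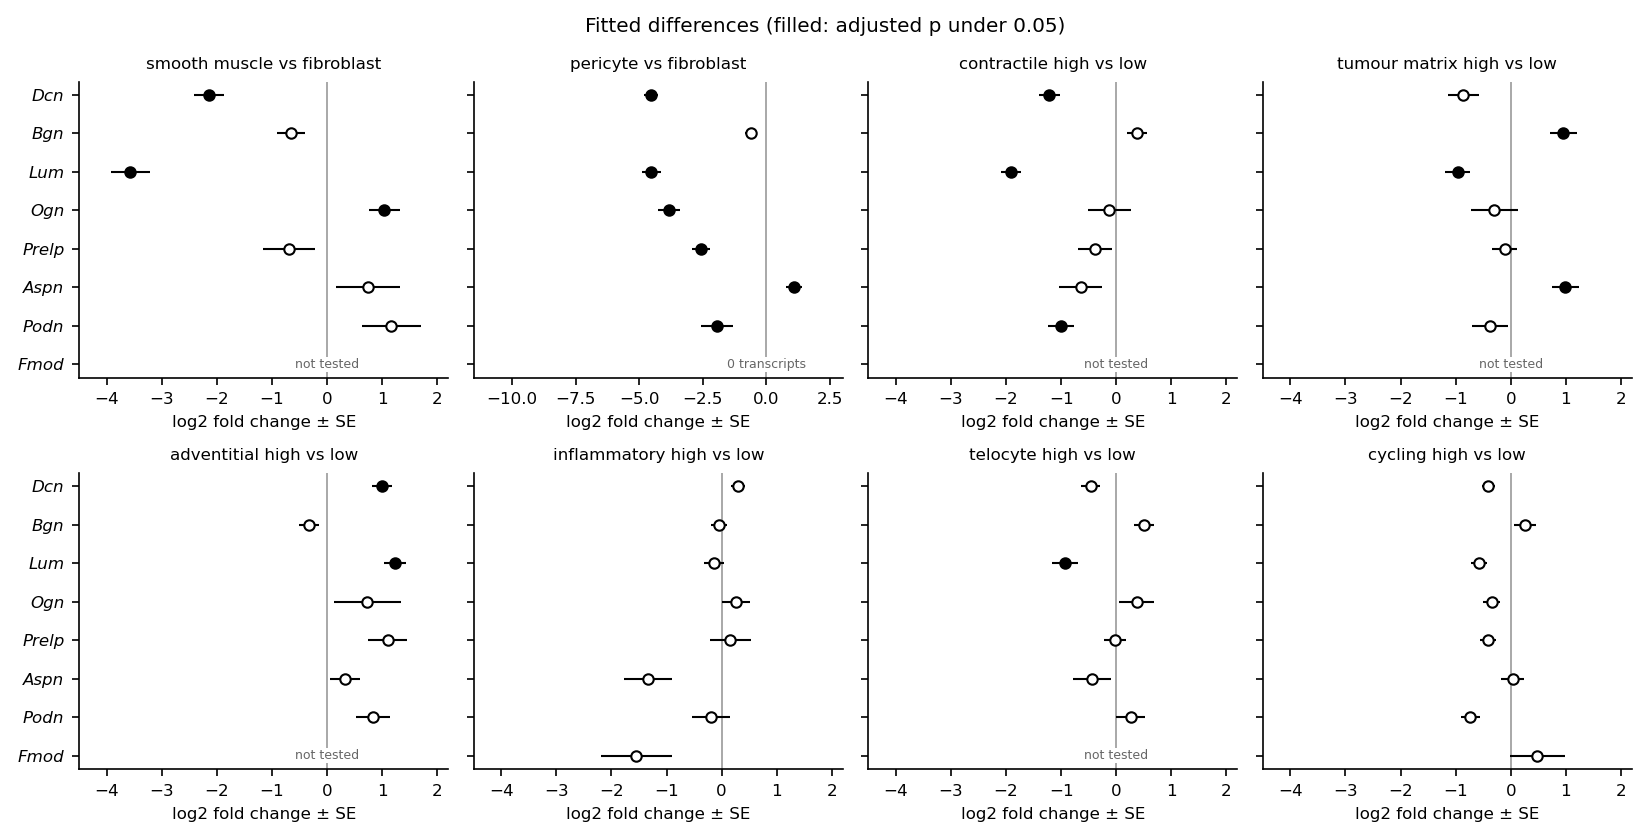
Log2 fold change ± SE of each gene in the 8 comparisons (edgeR quasi-likelihood fits on sums per tumour), filled where the adjusted p was under 0.05 and left out where 1 side had 0 transcripts. Dcn and Lum lie left of 0 in the smooth-muscle, pericyte, contractile and tumour-matrix panels and right of 0 in the adventitial panel, and Bgn and Aspn are filled on the right in the tumour-matrix panel.

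Across single fibroblast-marker wells, Dcn and Lum had the highest correlation of the pairs among the 8 genes. The mean Pearson correlation of log levels within tumours was 0.56 (0.48 to 0.62 over 4 tumours, 605 wells), and the genes are chromosomal neighbours. Lum and Aspn came next at 0.38 (0.25 to 0.50), while Dcn and Bgn, close relatives in the family, had 0.082. Aspn and Ogn, neighbours on chromosome 13, had 0.098, and Prelp and Fmod, neighbours on chromosome 1, had 0.082 over the 3 tumours with Fmod. Dcn and Ogn had -0.36 in the 28 wells of tumour 1 and 0.21, 0.23 and 0.29 in tumours 2, 3 and 4. Wells share library and depth within a plate, and most of these counts are small, so the weak values carry no finding.

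Among 5469 genes found in at least 20% of the wells, those most alike to Dcn were Serping1, Gsn and Dpt (mean r 0.59, 0.57 and 0.57), and those most alike to Lum were Dcn, Dpt and Sfrp1 (0.56, 0.53 and 0.52). Dpt encodes dermatopontin, a matrix protein that binds decorin. Bgn was most like Sparc, Igfbp7 and Col5a2 (0.46, 0.42 and 0.39), and Aspn most like Cilp, Lum and Col8a1 (0.43, 0.38 and 0.38), where Col8a1 is on the tumour-matrix list. Ogn was most like Gpx3, Adamdec1 and Efemp1 (0.41, 0.41 and 0.36), and Prelp most like C1s (0.32). These means weigh each tumour alike, and the r of Ogn with Adamdec1 ran from 0.20 to 0.77 over tumours. The genes most like Podn were Fxyd6 and Scp2 (0.29 and 0.28), and Scp2 is the gene whose span overlaps that of Podn. The r of Podn with Scp2 ran from 0.12 to 0.48 over tumours.

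**Figure D4:**
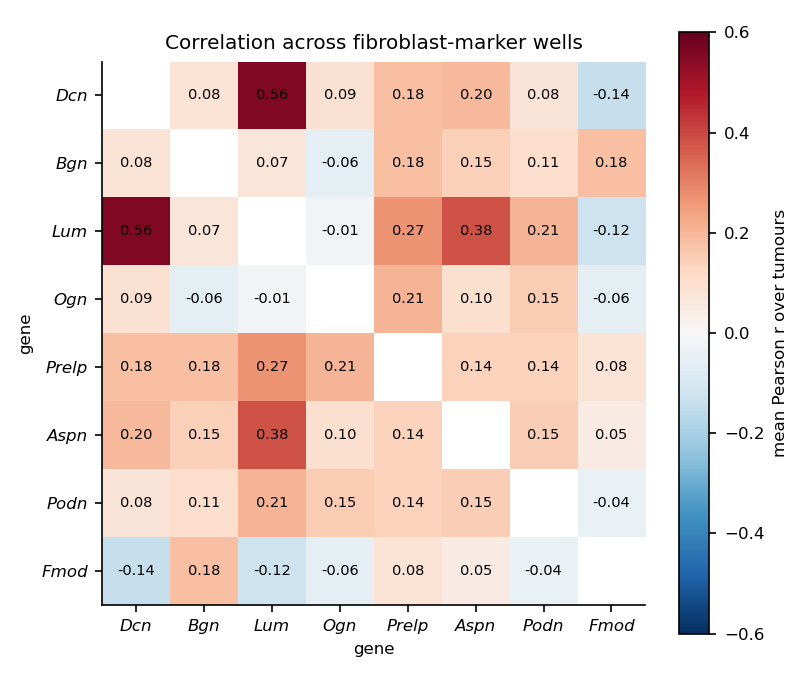
Mean over tumours of the Pearson correlation between each pair of the 8 genes across fibroblast-marker wells (log2 of the level per 10000 plus 1). Dcn with Lum is the strongest pair at 0.56, followed by Lum with Aspn at 0.38.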

How the data were processed

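Single wells were sequenced by SORT-seq with CEL-Seq2 libraries, per the labels, and BWA and mm10 are named in the submitters' processing notes; no source states their versions, the counting program or its annotation. What the authors deposited are expected counts for each gene in each well, which equal the saturation correction of whole UMIs out of 4096 to within 0.00499. The 4 plates held 612734 to 3165550 transcripts without spike-ins. Counts were summed per tumour and kind of well (at least 5 wells), rounded, and compared by edgeR 4.0.16 quasi-likelihood tests (R 4.3.3; TMM, filterByExpr, the tumour as a block since both groups come from the same tumours, Benjamini-Hochberg adjustment over all genes tested except the markers that set the groups, threshold 0.05). Each SE of a log2 difference was derived from the test, as the absolute log2 difference divided by the square root of the F statistic. The summed groups held 35929 to 2864256 transcripts.

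A well passed a smooth-muscle, pericyte or other-type gate with at least 20 transcripts per 10000 from at least 3 genes of its list (2 for Cajal), a haemoglobin-rich well had at least 100, and the remaining wells needed 20 from 3 fibroblast markers. These limits were set after the marker distributions had been seen. Within 2-fold of a gate lay 51 wells for smooth muscle and 46 for pericytes; 11 wells passed more than 1 gate and went to the higher level. No doublets were removed. Immune markers stood at no more than 0.0659 per 10000 in fibroblast-marker wells. The members and gene lists were chosen with earlier results of these data known. Of each list of related genes, the text names from the 3 called genes with the largest change. The fits were tested on simulated data, and DESeq2 1.42.0 was an alternative. Intervals and limits cover counting error only.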

Additional observations from a re-analysis of the deposited data

Results flagged for a closer look

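Bgn in the smooth-muscle-marker wells of tumour 1, at 13.2 transcripts per 10000, lay far below the other tumours, which stood between 25.2 and 26.4. It was the 1 group flagged among 17 checked, and chance marks about 1 in 20 groups in this way.

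Wells that were left out of all comparisons also carried these genes. The 683 wells with under 1000 transcripts held 1475 transcripts of the 8 genes, or 91.5 per 10000, and the 113 wells over the mitochondrial limit held 847, or 37.9 per 10000, against 169.8 ± 28.7 in the fibroblast-marker wells (SD, n = 4 tumours). No empty-well control is labelled, so the share of free RNA in these values was not tested.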

How the results depend on the processing

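Alternatives were tabulated for 47 of the 59 differences of single members, leaving out those along the cycling list and of Aspn, Ogn, Podn and Prelp along the telocyte list. Of 635 values, 513 kept their direction and side of the threshold, 61 lost the call, 36 gained one and 25 changed sign. Of these 47, the values that changed sign (log2) were, in single settings, Aspn in smooth-muscle-marker wells with the gate doubled (-0.019), Ogn along the contractile list without the replicate block (0.092), with wells in 4 parts (0.13) and thinned (0.043), Ogn, Podn and Prelp along the tumour-matrix list thinned (0.058, 0.22 and 0.25), Bgn and Ogn along the inflammatory list with wells in 2 parts (0.021 and -0.013), Bgn there with no filter (0.012), Podn there thinned (0.53) and Aspn along the adventitial list thinned (-0.45). With 1 tumour left out, the ranges that crossed 0 were -0.70 to 0.19 for Ogn along the contractile list, -0.87 to 0.092 and -0.82 to 0.059 for Ogn and Podn along the tumour-matrix list, -0.15 to 0.056, -0.24 to 0.020, -0.053 to 0.57, -0.75 to 0.22 and -0.19 to 0.69 for Bgn, Lum, Ogn, Podn and Prelp along the inflammatory list, and -0.077 to 0.49 for Aspn along the adventitial list. None of these differences was called with all tumours.

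Members called numbered 3, 6, 3, 3, 0, 2, 1 and 0 for smooth muscle, pericyte, contractile, tumour matrix, inflammatory, adventitial, telocyte and cycling; the share of all genes called in the same fit stands in brackets. A mitochondrial limit of 15% gave 6 for contractile (13.3%), 6 for tumour matrix (7.75%) and 5 for adventitial (14.4%). No filter on low counts gave 5 for tumour matrix (5.38%), 2 for inflammatory (2.504%), 6 for adventitial (8.80%), 3 for telocyte (5.69%) and 2 for cycling (0.944%). Without the replicate block the counts were 0 for tumour matrix (172 of 6879 genes), 1 for adventitial (5.30%) and 0 for telocyte (2.94%), and the others moved by 1.5 times or less. Thinned wells, assigned anew after thinning, gave 1 for inflammatory (1.81%), 1 for adventitial (10.5%) and 0 for telocyte (6.01%). Wells in 2 parts gave 4 for adventitial (8.32%) and 0 for telocyte (4.84%), and in 4 parts 1 for cycling (0.372%). A minimum of 3000 transcripts per well gave 0 for telocyte (6.69%), as did DESeq2 (4.77%). Cycling wells at 5 per 10000 or more against none gave 2 (4.70%). This, like a pericyte fit with at least 3 wells per tumour, was chosen after seeing the data. Leaving out 1 tumour gave 0 to 4 for pericyte (0.580 to 6.27%), 2 to 6 for contractile (3.94 to 13.4%), 0 to 6 for tumour matrix (2.28 to 6.998%), 2 to 5 for adventitial (4.98 to 14.9%), 0 to 1 for telocyte (3.16 to 7.21%) and 0 to 1 for cycling (0.0125 to 0.786%). With Rn45s and mitochondrial transcripts left out of the total, the fibroblast levels were 137.5 for Dcn, 14.8 for Lum, 41.4 for Bgn and 5.77 for Prelp. The causes were not tested. Fmod passed the filter on low counts in 3 of 8 comparisons.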
